A study of Mus musculus with 12 samples.

Results

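Hair shaft keratins, the keratins of the inner root sheath and companion layer, and the keratin-associated proteins that fill the space between hair keratin filaments were followed in mouse skin. They were chosen by symbol: every gene whose name starts with Krtap, together with Krt25 to Krt28, Krt31 to Krt36, Krt71 to Krt75 and Krt81 to Krt87. This gave 79 of the 47643 gene IDs in each deposited table, namely 22 keratins and 57 keratin-associated protein (Krtap) genes of 27 numbered subfamilies. Krt85 and Krtap10-10 were not analysed here.

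The libraries came from 4 groups of 3, all from mice on a C57BL/6 background aged 10 weeks. Whole skin and epidermis were taken from wild type (WT) mice and from conditional Adam17 knockout (KO) mice, in which Sox9-Cre was combined with floxed Adam17 alleles. Adam17 encodes a membrane-bound protease that sheds ligands and receptors from the cell surface. The driver limits the model to cells with a history of Sox9 expression, which as background include the hair follicle epithelium. Nothing in the labels ties a library to a particular mouse or says that libraries of 1 group came from separate mice, so the p-values measure the spread between these libraries, part of which may be technical. Libraries are named below by tissue, genotype and replicate number, as in Skin WT 1.

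A hair is built from below. Cells of the hair matrix divide in the follicle bulb, and as they move up they switch on type I and type II hair keratins, which pair into filaments, and then the keratin-associated proteins, which cross-link those filaments. Around the shaft, the inner root sheath makes its own keratin pairs, and the companion layer outside it makes Krt75. Follicles make these RNAs in quantity while they grow a hair and make little of them at rest, and in bulk tissue fewer cells of a type and less RNA per cell cannot be told apart.

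Each library held from 12208522 to 16743144 expected counts. Levels are given as CPM, counts scaled to a common library total, on which 3 counts correspond to 0.179 to 0.246. Adam17 stood at 70.3, 110.1 and 108 CPM in Skin WT and at 46.7, 57.4 and 59.4 CPM in Skin KO. In epidermis it stood at 73.2, 82.1 and 67.5 CPM in WT and at 39.6, 54.3 and 46.3 CPM in KO, so that the genotypes did not overlap in either tissue and the KO tissue kept part of the transcript. Reads of 4 Y-linked genes were absent from all 6 WT libraries and numbered 1728, 0 and 1034 in Skin KO. The Epidermis KO libraries held 1781, 213 and 679 such reads. Reads of Xist, made from an inactive X chromosome, numbered 0, 430 and 319 in Skin KO and 0, 2511 and 2050 in Epidermis KO, so that Skin KO 3, Epidermis KO 2 and Epidermis KO 3 held both kinds. Whether a library came from 1 mouse or several is not given in the labels. Several Krtap genes exist as near-identical copies whose reads the counting program shares out by probability. The share of values that were not whole numbers was 2.53% to 46.8% among these genes, depending on the library, against 8.42% to 9.98% over all genes, so the split between sister copies is uncertain.

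The promoters of these genes share a short sequence near the start. Of the 79 genes 66 had a promoter in the RefSeq table for GRCm38.p6, a patch of the assembly also called mm10. TATAAA, the core of the TATA box, lay on the gene's strand within the 45 bases before the start in 41 of the 66 (62.1%), against 2.45% of all 32851 RefSeq promoters. The share was 62.7% of 51 Krtap promoters and 60.0% of 15 keratin promoters. Over 250 bases and both strands it was 80.3% of the 66 and 12.4% of all promoters. CTTTGA, a core motif of LEF1 and related factors, was found on either strand within 250 bases in 25.8% of the 66 and 13.8% of all promoters. In the 41 promoters with TATAAA within the 45 bases, its first base lay a median of 31 bases before the start. The range was 15 to 44, with the upper end set by that window. Other members had their nearest match on the gene's strand further out, as far as 92 bases in Krtap4-8. A match is a description of the sequence and not a site. The 100 bases just before the start are shown for 6 genes, since the values below turn on these genes: an inner root sheath keratin, the most abundant Krtap gene, a Krtap gene with a high share in KO skin, and Krtap3-2 and Krt32, which departed from the others, beside Krtap3-1 from the same cluster. Capitals mark the TATAAA nearest to the start, and the sequence without capitals holds no such match.
Krt71 (chr15:101743098-101743197, minus strand): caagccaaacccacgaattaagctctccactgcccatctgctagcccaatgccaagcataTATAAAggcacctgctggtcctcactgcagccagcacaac
Krtap8-1 (chr16:89487953-89488052, minus strand): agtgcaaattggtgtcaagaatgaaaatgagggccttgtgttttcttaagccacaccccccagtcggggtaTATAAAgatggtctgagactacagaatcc
Krtap15 (chr16:88828909-88829008, plus strand): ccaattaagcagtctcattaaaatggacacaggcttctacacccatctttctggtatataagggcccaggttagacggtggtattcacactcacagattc
Krtap3-1 (chr11:99566631-99566730, minus strand): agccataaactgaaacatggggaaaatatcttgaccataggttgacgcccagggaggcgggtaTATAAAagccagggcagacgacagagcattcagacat
Krtap3-2 (chr11:99556854-99556953, minus strand): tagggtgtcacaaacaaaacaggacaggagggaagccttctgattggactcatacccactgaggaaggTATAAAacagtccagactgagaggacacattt
Krt32 (chr11:100088270-100088369, minus strand): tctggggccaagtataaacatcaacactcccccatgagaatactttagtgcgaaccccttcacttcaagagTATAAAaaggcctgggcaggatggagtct
In these 100 bases Krtap3-1 and Krtap3-2 were identical at 56.0% of aligned positions. Against their sister gene Krtap3-3, Krtap3-1 was identical at 61.2% and Krtap3-2 at 62.0%. Outside the subfamily, Krtap3-2 was identical to Krt32 at 54.1% and to Krtap8-1 at 53.8%.

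**Figure D1:**
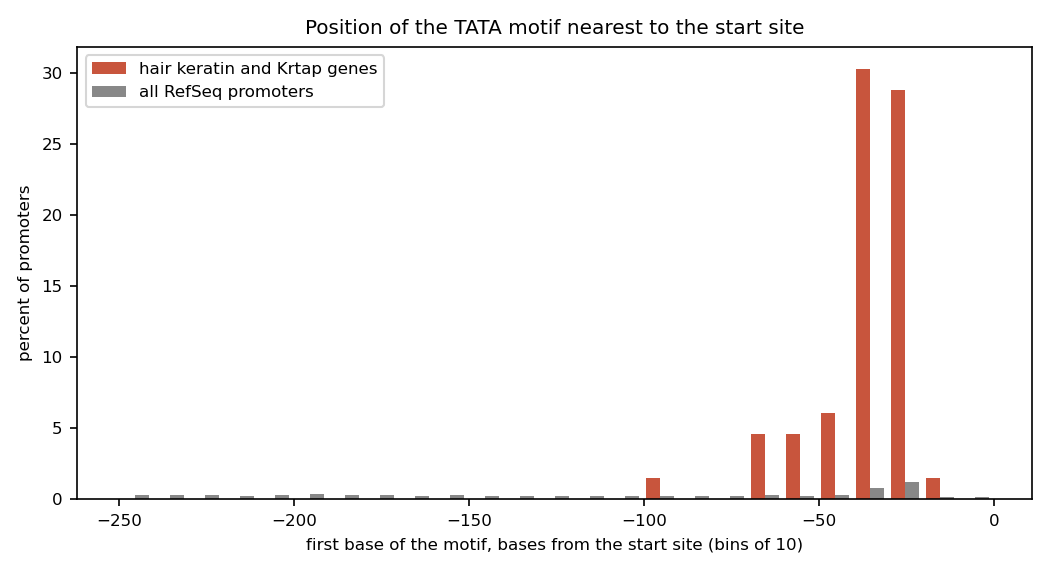
Distance from the start site (x axis, bases, bins of 10) of the nearest TATAAA on the gene's strand, as a percent of promoters (y axis), for 66 hair keratin and Krtap promoters and all 32851 RefSeq promoters. Most hair gene matches lie between 21 and 40 bases before the start.

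Summed over the 79 genes, Skin WT held 1008, 175 and 665 CPM and Skin KO held 16637, 429 and 4463 CPM in replicates 1, 2 and 3. Within each genotype the libraries thus lay far apart, and Skin KO 2 lay below both Skin WT 1 and Skin WT 3. Epidermis WT held 60.3, 283 and 282 CPM and Epidermis KO held 107, 419 and 806 CPM. The lowest epidermis library of each genotype was replicate 1, whereas in skin the lowest of each genotype was replicate 2.

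The order of the libraries was shared by almost every gene. Of the 79 genes 78 were highest of all 12 libraries in Skin KO 1, and the same number had Skin KO 1 above Skin KO 3 and Skin KO 3 above Skin KO 2. The exception was Krtap13, which had 0 counts in all 12 libraries. Skin WT 2 was the lowest WT skin library for 67 genes, and 57 genes had no read at all in it. Skin KO 1 lay above all WT skin libraries for 78 genes and Skin KO 3 for 77, but Skin KO 2 lay below both Skin WT 1 and Skin WT 3 for 57. The median gene stood at 4.44, 0 and 3.68 CPM in Skin WT and at 119, 1.1 and 30.1 CPM in Skin KO. In epidermis the median gene stood below 1 CPM in every library, from 0 in Epidermis WT 1 to 0.889 CPM in Epidermis KO 3.

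**Figure D2:**
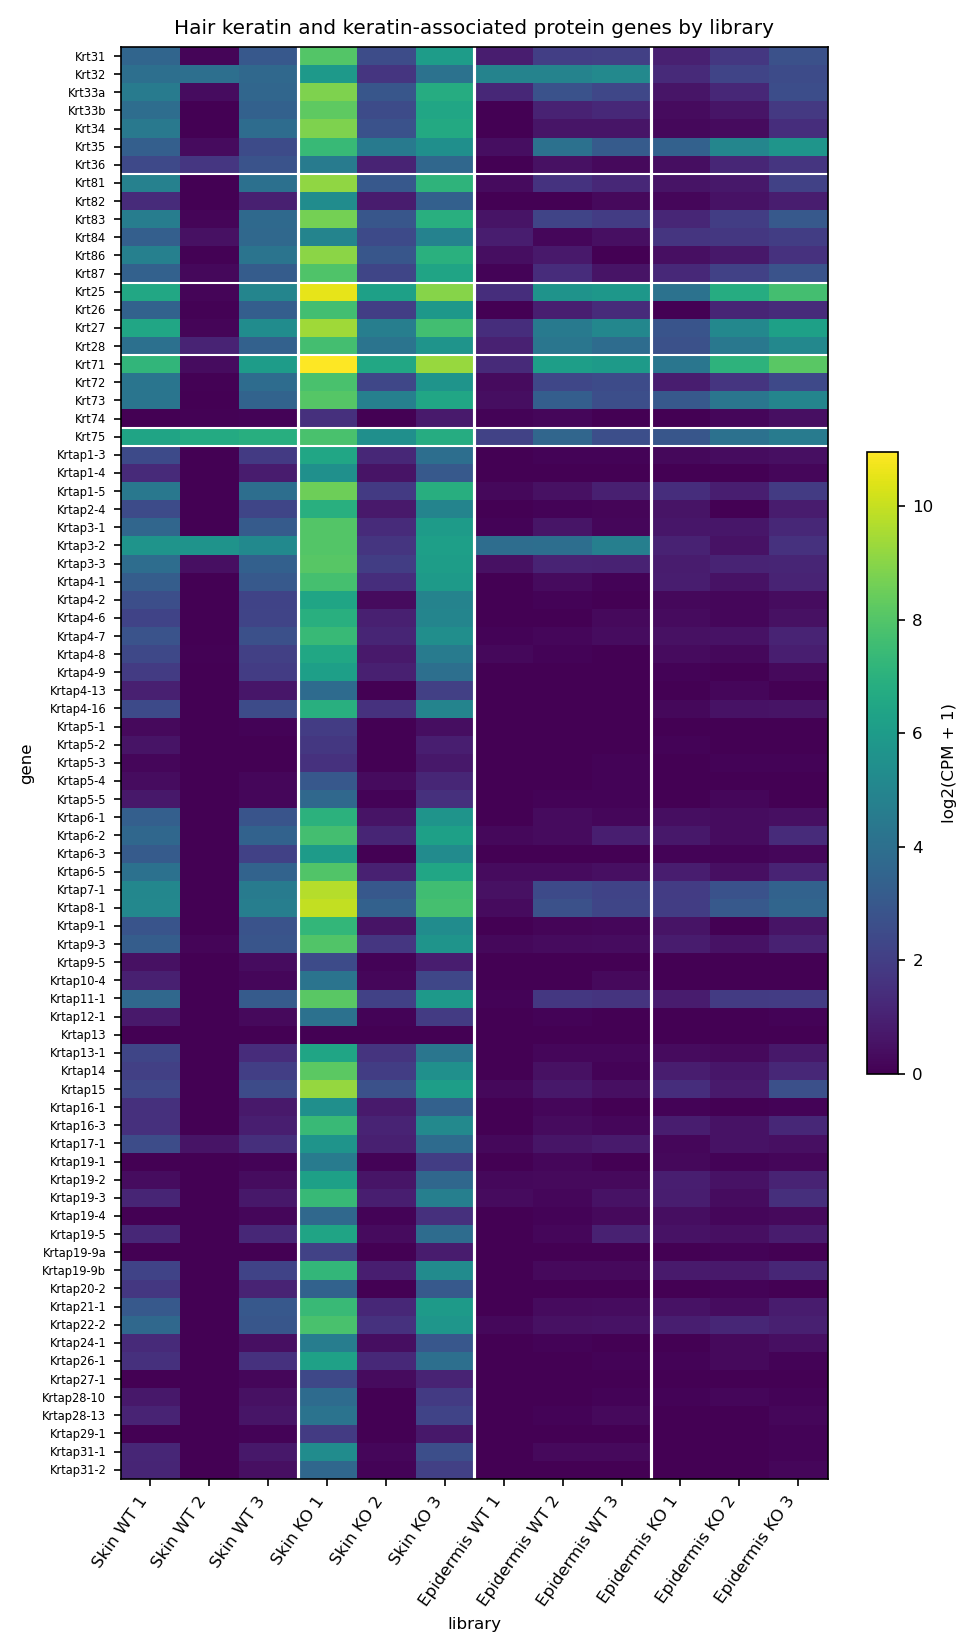
Level of each of the 79 genes (rows, grouped by class from type I hair keratins at the top to Krtap genes at the bottom) in each of the 12 libraries (columns), as log2(CPM + 1). The columns of Skin KO 1 and Skin KO 3 are bright almost throughout, and that of Skin WT 2 is dark except for Krt32, Krt75, Krtap3-2 and, faintly, a few others.

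Per length, the inner root sheath keratins Krt71 and Krt25 were the most abundant keratins, with means over the 12 libraries of 170.2 and 143 TPM, a scaled level that is also divided by gene length. They are a type II and a type I keratin that form filaments in the layers of the sheath. Krt71 stood at 149, 0.299 and 64.6 CPM in Skin WT and at 1980.3, 93.4 and 617 CPM in Skin KO. Its epidermis values were 1.47, 70.3 and 62.5 CPM in WT and 18.8, 136 and 281 CPM in KO. Krt71 therefore overlapped between genotypes in both tissues, with Skin WT 2 and Epidermis WT 1 far below the other WT libraries. Krt25 followed, at 93.6, 0.119 and 30.8 CPM in Skin WT and 1505, 73.7 and 502 CPM in Skin KO. Its WT epidermis libraries held 1.72, 49.1 and 54.8 CPM and its KO ones 16.7, 110.2 and 204 CPM. Krt27, another type I partner, stood at 89.5, 0.119 and 38.8 CPM in Skin WT and at 662, 24.6 and 199 CPM in Skin KO, with Skin KO 2 between the WT libraries. Krt73 and Krt72 belong to the cuticle of the inner root sheath. Krt73 did not overlap between the skin genotypes, at 18, 0 and 10.1 CPM in WT and 270.2, 26.4 and 89.6 CPM in KO, whereas Krt72 did, since Skin KO 2 held 4.01 CPM and Skin WT 1 held 18.1 CPM. Krt74, annotated as a transcribed pseudogene, reached at most 1.83 CPM.

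Hair keratins of the cortex and cuticle other than Krt32 and Krt35 stayed at or below 7.35 CPM in every epidermis library. Krt33a, a type I cortex keratin, stood at 22.3, 0.299 and 11.1 CPM in Skin WT and at 451, 6.58 and 110.3 CPM in Skin KO. Krt34, from the same cluster, stood at 20.8, 0 and 13.5 CPM in Skin WT and at 449.9, 5.8 and 98.7 CPM in Skin KO. For both, Skin KO 2 held less than Skin WT 1 and Skin WT 3. Krt81 and Krt86, type II partners in the cortex, had the same order of libraries: Krt81 stood at 26.7, 0 and 15.7 CPM in Skin WT and at 559, 7.15 and 139.8 CPM in Skin KO. Krt86 stood at 26.5, 0.0597 and 17.4 CPM in Skin WT and at 527, 6.63 and 123 CPM in Skin KO, and at no more than 1.94 CPM in any epidermis library. The type II hair keratins together came to 97.6, 0.776 and 66.6 CPM in Skin WT and 1813, 29.6 and 499 CPM in Skin KO, and to between 1.97 and 22.5 CPM in epidermis.

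Krt35, one of the first hair keratins to appear above the matrix, behaved differently from the cortex keratins. It stood at 8.91, 0.239 and 4.6 CPM in Skin WT and at 167, 21.2 and 42.8 CPM in Skin KO, so that the genotypes did not overlap. In epidermis it held 0.328, 15.8 and 7.85 CPM in WT and 9.5, 31.5 and 52.1 CPM in KO, which is as much as in several skin libraries. Per length, Krt35 stood at 5.84, 20.9 and 36.6 TPM in Epidermis KO, where Krt33a stood at 0.33, 0.94 and 3.71 TPM.

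Krt75, the keratin of the companion layer between the inner and outer root sheaths, was the most even of the 22 across whole skin. It stood at 82.1, 104 and 117 CPM in Skin WT and at 222, 43.1 and 108 CPM in Skin KO. The 3 WT libraries lay between the lowest and highest KO libraries, and Skin WT 2 did not stand apart. In Skin WT 2 it alone made up 59.4% of the CPM of all 79 genes, against 8.15% in Skin WT 1 and 1.34% in Skin KO 1.

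**Figure D3:**
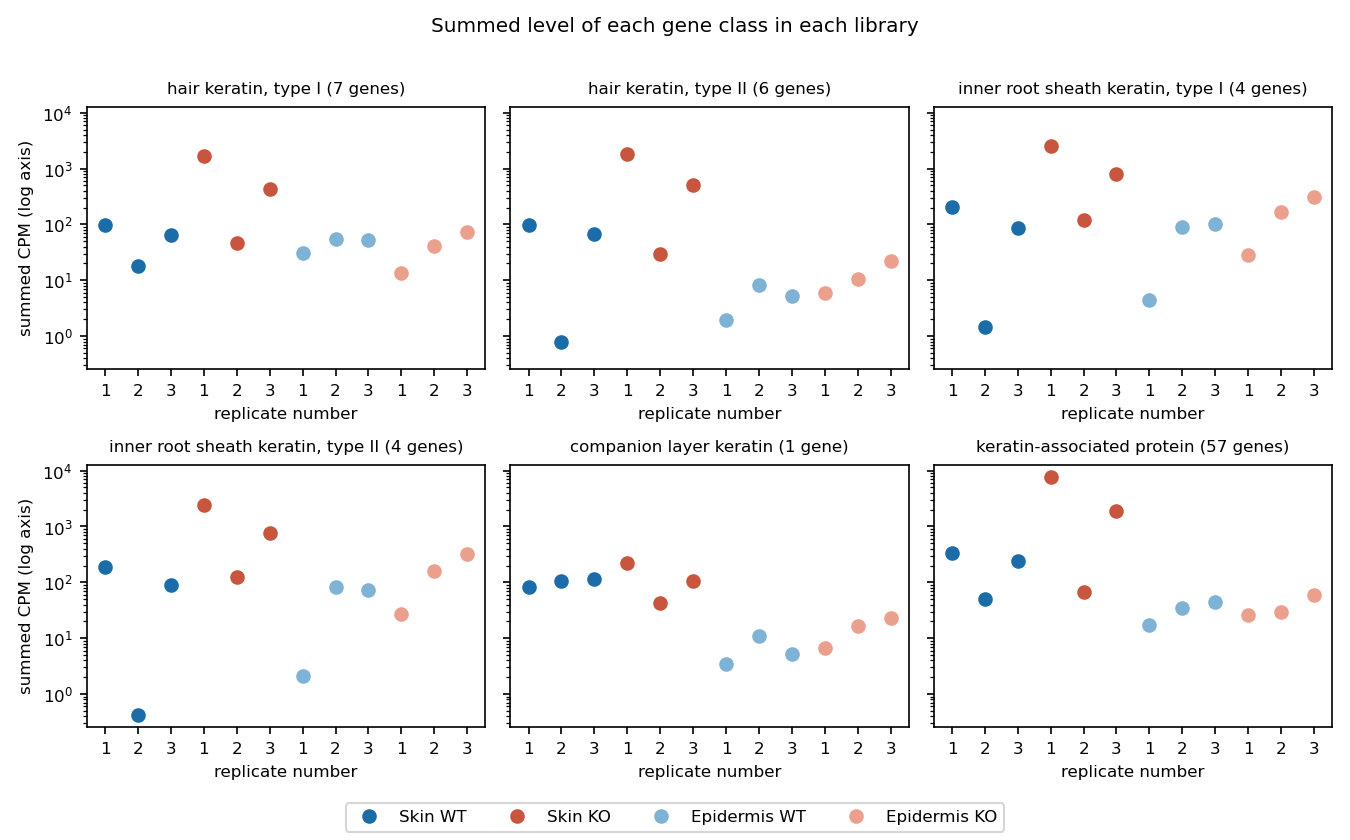
Summed CPM of each gene class (log axis) in each library, numbered by replicate and coloured by group. Skin WT 2 is far below the other WT skin libraries for type II hair keratins and both classes of inner root sheath keratins, whereas the companion layer keratin, Krt75, varies little within Skin WT.

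Among the keratin-associated proteins, Krtap8-1 and Krtap7-1 had the highest level per length, with means of 329 and 259 TPM over the 12 libraries. Both belong to the families rich in glycine and tyrosine, which as background are made in the cortex. Krtap8-1 stood at 34.1, 0 and 24.6 CPM in Skin WT and at 982, 9.44 and 211 CPM in Skin KO. Krtap7-1 stood at 32.5, 0 and 22.5 CPM in Skin WT and at 843, 7.16 and 191 CPM in Skin KO. In epidermis Krtap8-1 reached 5.63 CPM in WT and 10.8 CPM in KO. Other members of these families followed the same order of libraries: Krtap6-5 stood at 16, 0 and 10.2 CPM in Skin WT and at 249.8, 1.02 and 87.1 CPM in Skin KO. Krtap22-2 stood at 12, 0 and 6.7 CPM in Skin WT and at 222, 1.97 and 53.4 CPM in Skin KO.

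Of the sulfur-rich families, Krtap1-5 stood at 19.6, 0 and 14.7 CPM in Skin WT and at 371, 2.6 and 115 CPM in Skin KO. Krtap11-1 stood at 12, 0 and 7.74 CPM in Skin WT and at 281, 3.3 and 59 CPM in Skin KO. In both genes Skin KO 2 lay below Skin WT 1 and Skin WT 3. The very cysteine-rich Krtap4-1 and Krtap9-3 reached 209 and 254 CPM in Skin KO 1, 1.7 and 2.28 CPM in Skin KO 2 and 8.37 and 8.39 CPM in Skin WT 1. The lowest subfamilies were Krtap27 and Krtap29, whose best expressed genes, Krtap27-1 and Krtap29-1, reached 4.13 and 2.78 CPM in Skin KO 1. Between these extremes the best expressed genes of Krtap2, Krtap13, Krtap17, Krtap24 and Krtap31 reached 121, 86.7, 49.1, 23.6 and 38.7 CPM in Skin KO 1. Those of Krtap5, Krtap10, Krtap12, Krtap20 and Krtap28 reached 12.1, 17.5, 16.1, 9.78 and 16.9 CPM there.

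The make-up of the program also differed between libraries. Per length, the ratio of inner root sheath keratins to Krtap genes was 0.357, 0.0198 and 0.225 in Skin WT and 0.176, 1.02 and 0.227 in Skin KO. In epidermis it was 0.171, 1.62 and 1.41 in WT and 0.565, 2.57 and 2.86 in KO. Inner root sheath keratins thus outweighed Krtap genes in 4 of the 6 epidermis libraries and in Skin KO 2. Set against the hair keratins, they stood at a ratio of 1.74, 0.0563 and 1.17 in WT skin against 1.24, 2.72 and 1.44 in KO skin. The same ratio was 0.106, 1.72 and 1.76 for WT epidermis and 2.5, 5.14 and 5.57 for KO epidermis. In some libraries the term divided by was largely a single gene. Krtap3-2 held 49.1 of 50.1 CPM of the Krtap genes in Skin WT 2 and 14.1 of 17.2 CPM in Epidermis WT 1. Krt32 held 28.7 of 31.1 CPM of the type I hair keratins in Epidermis WT 1. Both genes fell in KO epidermis, as given below, and their part in the ratios was not tested. These ratios are a description and carry no test.

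In whole skin, KO against WT, 9 of the 63 genes tested rose and 0 fell, which is 14.3% against 22.2% of all 14907 genes called higher and 23.3% called lower (edgeR's quasi-likelihood test, Benjamini-Hochberg adjustment over all genes). At an unadjusted p under 0.05 the count was 35. The share of all genes at that threshold was not taken, so this count is not read as a result. The median difference of the tested members was 4.01 on the log2 scale, against -0.00 over all genes. Genes that entered the test only through their level in KO skin had to differ in that direction, so this median describes the genes tested and not all 79. Krt35 rose by 4.05 (SE 1.18, adjusted p = 0.028), and of the inner root sheath keratins Krt28 rose by 3.36 (SE 1.14, adjusted p = 0.0468), from 15.5, 1.13 and 9.49 CPM to 205, 17.7 and 49.4 CPM. Krt82, a type II keratin of the hair cuticle, rose by 4.29 (SE 1.44, adjusted p = 0.0458), from 1.56, 0 and 0.977 CPM to 39.3, 0.787 and 9.11 CPM. The KO libraries of Krt35 and Krt28 all lay above the WT libraries, while Skin KO 2 fell within the WT range for Krt82.

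The other 6 genes called were Krtap genes. Krtap19-3 stood at 1.22, 0 and 0.628 CPM in Skin WT and at 167, 0.866 and 25.4 CPM in Skin KO and rose by 6.74 on the log2 scale (SE 1.86, adjusted p = 0.023). Krtap16-3 stood at 1.84, 0 and 0.907 CPM in Skin WT and at 169.5, 1.1 and 34.4 CPM in Skin KO and rose by 6.25 (SE 1.77, adjusted p = 0.0253). Krtap15 stood at 4.01, 0 and 4.6 CPM in Skin WT and at 587, 5.51 and 69.4 CPM in Skin KO and rose by 6.29 (SE 1.86, adjusted p = 0.0293). Skin KO 2 lay within the WT range for Krtap19-3 and Krtap16-3 and just above it for Krtap15. Krtap14 rose by 5.78 (SE 1.74, adjusted p = 0.0312), Krtap26-1 by 4.61 and Krtap19-5 by 5.21 on the log2 scale. Krt35, Krt28, Krt73 and Krtap15 were the 4 genes whose skin genotypes did not overlap, against 26.8% of all genes that were higher in all KO libraries.

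This comparison depended on how same-numbered libraries are treated. With the replicate number as a block, which takes same-numbered skin libraries as pairs, 59 of 63 genes rose (21.5% of all genes). The labels do not state this pairing, and for the libraries numbered 2 it was not found without the hair genes: leaving out these and the genes that follow them, the correlation of Skin WT 2 was 0.00225 with Skin KO 2 and 0.351 with Skin KO 3. The hair genes were lowest in both skin libraries numbered 2. Leaving out genes picked for following them can by itself lower that correlation, so the check does not decide on pairing. Krt32, Krt36, Krt75 and Krtap3-2 were the 4 that did not pass with the block. All 9 genes called without the block were among the 59. Genes that entered the test only through their level in KO skin had to differ in that direction in this fit too. Nothing about the family is therefore read from the 59. Skin WT 2 and Skin KO 2 were the lowest libraries of their groups, and 63 genes had more CPM in Skin KO 2 than in Skin WT 2, 78 in Skin KO 1 than in Skin WT 1 and 77 in Skin KO 3 than in Skin WT 3. Without Skin KO 1 no gene was called and without Skin WT 3 none either, 2 were called without Skin WT 2, 5 without Skin KO 3 and 51 without Skin KO 2. Leaving out both Skin WT 2 and Skin KO 1 left 1. Shares of all genes called in these refits are not given, so the swings are not read as particular to the members. The order of the Skin KO libraries in Y-linked reads (1728, 0 and 1034) is that of the hair genes. In Epidermis KO the orders differed, with 1781, 213 and 679 Y-linked reads and 107, 419 and 806 CPM of hair genes. The part of the Y-linked reads in the skin result was not tested. A fit with the Y-linked share as a covariate cannot decide it. All Skin WT libraries and Skin KO 2 had 0 such reads, so its genotype difference rests largely on Skin KO 2. In that fit no gene rose and 3 fell, Krt75 by 1.13, Krt32 by 2.44 and Krtap3-2 by 3.59 on the log2 scale. The share of all genes called in that fit is not given, and nothing is read from it.

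In epidermis, 6 of the 25 genes tested rose and 2 fell, or 24.0% and 8.0%, against 26.2% and 25.3% of all 13632 genes. Krt84 and Krt87, type II hair keratins, rose. Krt84 stood at 0.819, 0.131 and 0.367 CPM in WT and at 2.2, 2.39 and 2.97 CPM in KO, and rose by 2.56 on the log2 scale (SE 0.50, adjusted p = 0.00307). It was 1 of 3 genes that rose without overlap of the genotypes, with Krtap22-2 and Krtap15, against 27.4% of all genes. Krt87 stood at 0.0819, 1.59 and 0.513 CPM in WT and at 1.38, 3.39 and 6.07 CPM in KO and rose by 2.23 (SE 0.72, adjusted p = 0.0294), with Epidermis KO 1 inside the WT range. Of the inner root sheath keratins Krt73 rose by 1.96 (SE 0.72, adjusted p = 0.0466), from 0.328, 8.58 and 5.13 CPM to 7.44, 18.5 and 30.8 CPM. Among Krtap genes Krtap22-2 rose by 1.61, Krtap15 by 2.65 and Krtap1-5 by 1.79 on the log2 scale (adjusted p = 0.0147, 0.0165 and 0.0364). All 3 stayed below 6 CPM in every epidermis library. Krt35 missed the threshold with a difference of 1.90 (adjusted p = 0.0806), and so did Krt71 with 1.63 (adjusted p = 0.225) and Krt25 with 1.57 (adjusted p = 0.207). Krtap15 was the only gene called higher in both tissues.

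Krt32 and Krtap3-2 fell in KO epidermis, and they stood apart from the other genes in WT tissue as well. Krt32 is a type I keratin of the hair cuticle, and Krtap3-2 belongs to a small sulfur-rich subfamily. Krt32 (ENSMUSG00000046095.5, chr11:100080848-100088226, minus strand, GRCm38) stood at 28.7, 28.6 and 34.9 CPM in Epidermis WT and at 1.49, 3.73 and 4.7 CPM in Epidermis KO. This is 30.7 ± 3.64 CPM against 3.3 ± 1.65 CPM (SD, n = 3 each), a fall by 3.24 on the log2 scale or 9.43-fold (SE 0.30, adjusted p = 8.44e-05). Krtap3-2 (ENSMUSG00000069721.2, chr11:99555823-99556853, minus strand) stood at 14.1, 14.6 and 25.3 CPM in Epidermis WT and at 1.09, 0.453 and 1.94 CPM in Epidermis KO. It fell by 3.94 on the log2 scale or 15.4-fold (SE 0.44, adjusted p = 0.000195). For both genes all WT epidermis libraries lay above all KO epidermis libraries, while 31.1% of all genes were lower in all KO libraries. Epidermis WT 1, which was the lowest WT epidermis library for 47 of the 79 genes, lay close to Epidermis WT 2 for both.

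In WT skin these 2 genes did not share the deep trough of Skin WT 2. Krt32 stood at 14.8, 15.2 and 11.9 CPM in Skin WT and Krtap3-2 at 50.2, 49.1 and 35.9 CPM. In Skin WT 2, Krtap3-2 gave 822 of the 839 Krtap reads. Its neighbours Krtap3-1 and Krtap3-3 stood at 11.4, 0 and 7.76 CPM and at 14, 0.352 and 9.17 CPM in Skin WT. The 3 sister genes were close together in Skin KO 1, at 257 CPM for Krtap3-1, 259.7 CPM for Krtap3-2 and 277 CPM for Krtap3-3. Skin WT 2 was thus level with Skin WT 1 for Krtap3-2 and near or at 0 for its neighbours. In Skin KO, Krt32 stood at 57.7, 2.2 and 16.4 CPM and Krtap3-2 at 259.7, 2.19 and 71.4 CPM, so both followed the order of the other hair genes there, and Skin KO 2 lay below every WT skin library for both.

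The difference between the genotype effects in epidermis and in skin was tested with all 12 libraries. It passed for 2 of 64 genes, both toward a lower value in epidermis, or 3.12% against 6.36% of all 15394 genes in that direction and 10.1% in the other. For Krt32 the epidermis effect was lower than the skin effect by -4.06 on the log2 scale (SE 1.09, adjusted p = 0.0283), and for Krtap3-2 by -5.20 (SE 1.55, adjusted p = 0.0421). Skin had no called change for either gene. Adjusted p for Krt32 ran from 0.00391 to 0.124 over 20 alternatives and passed in 12, and for Krtap3-2 it ran from 0.00341 to 0.428 and passed in 7. With the replicate block 19 genes passed, against 5.09% of all genes in that direction, but neither of these did, at adjusted p = 0.0514 for Krt32 and 0.115 for Krtap3-2.

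**Figure D4:**
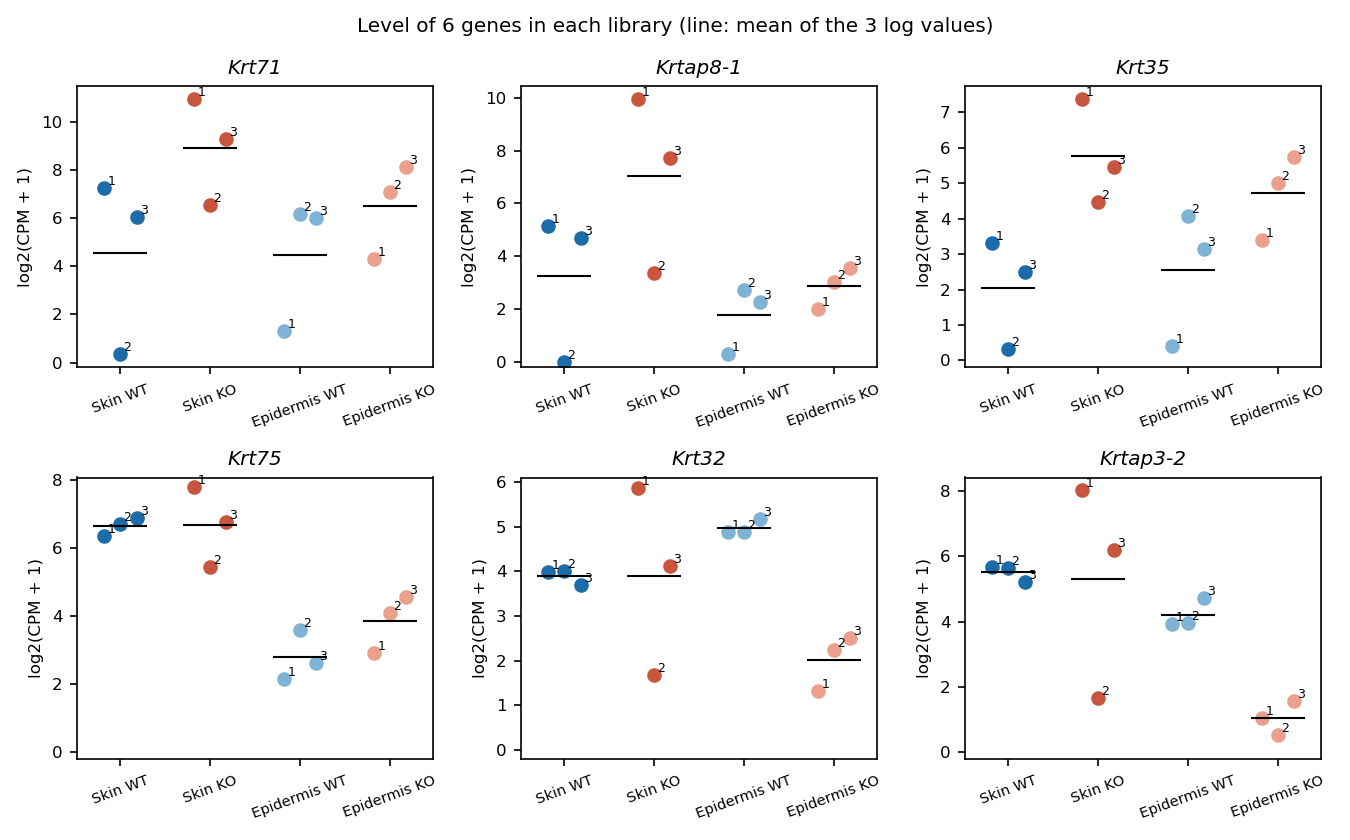
Level, as log2(CPM + 1), of Krt71, Krtap8-1, Krt35, Krt75, Krt32 and Krtap3-2 in each library (points, numbered by replicate), with the mean of the 3 log values as a line. Krt71, Krtap8-1 and Krt35 drop in Skin WT 2 and Epidermis WT 1, whereas Krt32 and Krtap3-2 vary little within each WT group and are low in all 3 libraries of Epidermis KO.

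Between tissues of WT mice, 1 of 28 tested genes was higher in epidermis and 5 were lower, against 17.5% and 25.3% of all 14596 genes. Krt32 was higher in epidermis, by 1.37 on the log2 scale (SE 0.21, adjusted p = 0.00194). Krt75 was lower by -3.70 (SE 0.37, adjusted p = 0.000243), from 82.1, 104 and 117 CPM to 3.44, 11.1 and 5.21 CPM. Krt36 was lower by -4.03 (SE 0.69, adjusted p = 0.00295), from 4.29, 2.33 and 6.07 CPM to 0, 0.393 and 0.22 CPM. For Krt75, Krt36 and Krtap3-2 every WT skin library lay above every WT epidermis library, as for 35.3% of all genes. Krtap3-2, Krt84 and Krt86 were lower by -1.09, -3.84 and -5.19. Leaving out Skin WT 2 raised the number of calls from 6 to 49, with 48 lower in epidermis, and leaving out Epidermis WT 1 or Epidermis WT 2 reduced it to 3. Shares of all genes are not given for these refits either, so the change is not read as particular to the members.

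Between tissues of KO mice, 43 of 51 tested genes were lower in epidermis and 0 higher, with 15.9% of all 14117 genes called lower and 14.1% higher. Many of these members entered the test only through their level in KO skin and so had to be lower in epidermis, and nothing about the family is read from this count. All 30 Krtap genes tested and all 6 type II hair keratins were lower, as were 4 of 7 type I hair keratins, 2 of 7 inner root sheath keratins and Krt75. Krt86 was lower by -7.52 on the log2 scale, Krt34 by -7.76 and Krtap26-1 by -7.65. None of these genes passed the count filter within epidermis, so each could only come out lower, and no p is given for them. Krtap26-1 stood at 0.0647, 0.224 and 0.0691 CPM in Epidermis KO. Krt75 was lower by -2.78 (SE 0.62, adjusted p = 0.0158), from 222, 43.1 and 108 CPM to 6.61, 16.2 and 22.5 CPM, and Krt81 by -7.01. The inner root sheath keratins Krt71, Krt25, Krt27 and Krt28 and the early hair keratin Krt35 did not pass, with differences between -2.73 and -1.07. Of the tested genes 26 had no overlap between the tissues, against 45.3% of all genes. The count fell to 0 without Epidermis KO 1 or without Epidermis KO 2, to 6 without Epidermis KO 3, to 21 without Skin KO 3 and to 27 without Skin KO 1, and it rose to 70 without Skin KO 2. How many of all genes were called in each of these refits is not given, so the changes are not read as particular to the members. These 4 comparisons share libraries, and their results are not independent of each other.

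The mix of Krtap genes also differed between the whole skin genotypes. Shares of the Krtap reads were compared between the 2 WT skin libraries with reads across the family (4968 in Skin WT 1 and 3466 in Skin WT 3) and the 3 KO libraries (98644, 852 and 25917 reads). Skin WT 2 was left out because nearly all its Krtap reads were Krtap3-2. This was chosen after the values were seen and carries no test. Krtap3-2 gave 14.9% and 14.8% of the Krtap reads in WT and 3.31%, 3.27% and 3.84% in KO. Krtap15 gave 1.19% and 1.9% in WT and 7.49%, 8.22% and 3.73% in KO, and Krtap14 gave 0.946% and 1.27% in WT and 3.7%, 4.46% and 2.4% in KO. Skin KO 2, with far fewer Krtap reads than Skin WT 1, thus lay with the other KO libraries in these shares.

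Of the 49 Krtap genes with at least 100 reads over the 5 libraries, 11 had a higher share in all KO libraries and 6 a lower one. Shares add up to a whole, so the lower share of Krtap3-2 in KO by itself raised those of the other genes. Among the 11, the KO mean was only 1.12 times the WT mean for Krtap7-1, 1.21 times for Krtap9-3 and 1.25 times for Krtap8-1. How many of the 11 depend on Krtap3-2 was not tested. Some genes separate 2 from 3 libraries by order alone, so neither count is read as a result. Of the 11, 10 lie in the cluster on chromosome 16, which held 22 of the 49. They included Krtap19-2, Krtap19-3, Krtap16-3, Krtap14 and Krtap15. They also included Krtap19-1 and Krtap19-4, each with 1 read in Skin KO 2 and at most 2 in either WT library, so that their place among the 11 rests on a single read. Krtap19-3, of a glycine- and tyrosine-rich subfamily, gave 0.362% and 0.26% of Krtap reads in WT and 2.13%, 1.29% and 1.37% in KO. Krtap6, another glycine- and tyrosine-rich subfamily of that cluster, did not follow it. The ratio of Krtap19 to Krtap6 reads was 0.147 and 0.206 in Skin WT 1 and 3 and 0.797, 1.0 and 0.378 in Skin KO. The value of Skin KO 2 rests on 34 reads of each subfamily. In epidermis the ratio was 1.0, 1.08 and 1.53 in WT, on 5 to 29 Krtap19 reads, and 1.83, 2.0 and 1.68 in KO. Ratios as high as in Skin KO thus occurred in WT libraries too. In Skin WT 2 both subfamilies had 0 reads, which allows up to 0.179 CPM by the limit of 3 counts.

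**Figure D5:**
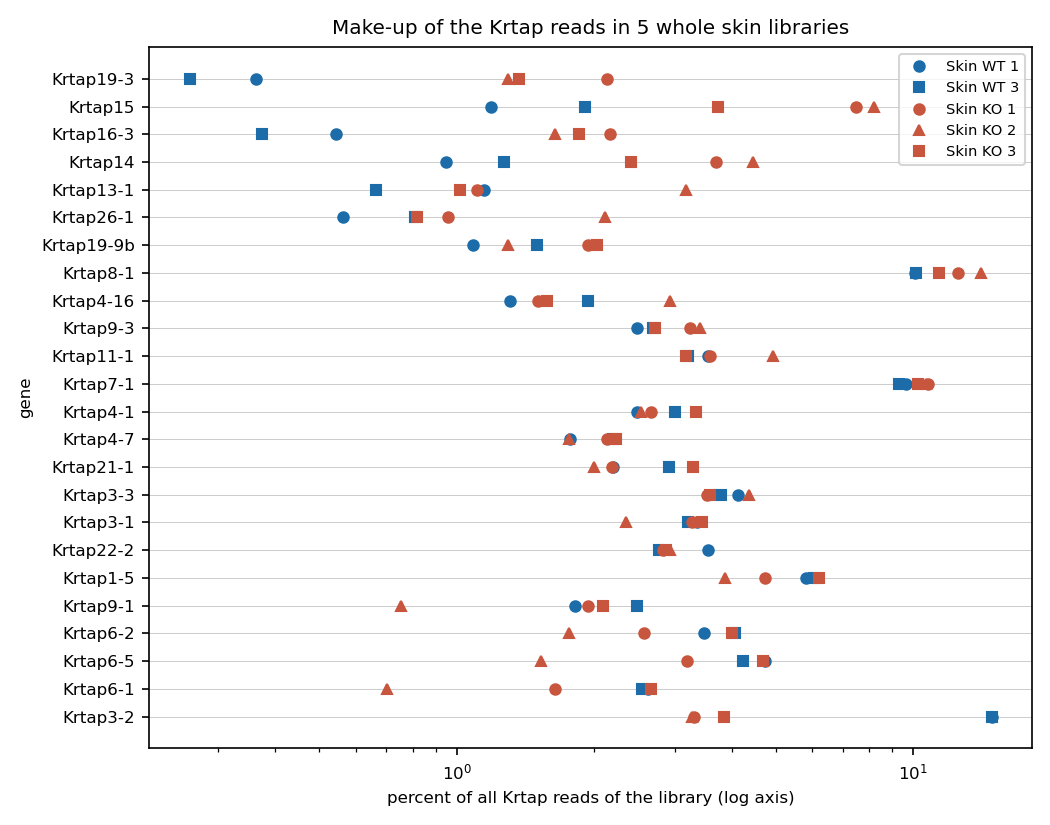
Share of each library's Krtap reads (x axis, percent, log axis) given by the 24 Krtap genes that reach 2% in at least 1 of the 5 whole skin libraries shown and have reads in all 5. Krtap19-3, Krtap15, Krtap16-3 and Krtap14 lie further right in all 3 KO libraries, and Krtap3-2 lies further left.

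Of 16 regulators of hair differentiation 15 were tested in each tissue: 5 rose and 2 fell in KO skin, where 22.2% of all genes rose and 23.3% fell, and 2 rose and 3 fell in KO epidermis, where 26.2% of all genes rose and 25.3% fell. Foxn1, a transcription factor needed for hair shaft keratin expression, stood at 9.86, 12 and 13.3 CPM in Skin WT and at 39.4, 17.9 and 24 CPM in Skin KO, without overlap. It rose by 1.26 on the log2 scale (SE 0.28, adjusted p = 0.0101). Lef1, the Wnt effector of the hair matrix, stood at 0.748, 0.358 and 1.27 CPM in Skin WT and at 11.9, 2.89 and 3.55 CPM in Skin KO and rose by 3.01 (SE 0.69, adjusted p = 0.0117). Gata3, a transcription factor of the inner root sheath, fell by 1.60 in skin (SE 0.22, adjusted p = 0.00173), from 220.2, 359 and 294 CPM to 111, 64.9 and 99.2 CPM. It fell by 1.52 in epidermis (adjusted p = 0.000252). Bmp4 fell by 1.65 in skin and by 3.47 in epidermis (adjusted p = 0.0297 and 5.24e-05). Wnt10a rose by 0.37 in skin but fell by 1.31 in epidermis (adjusted p = 0.0296 and 0.000352). Ovol1 rose by 1.26 in skin (adjusted p = 0.00141) and was not called in epidermis. Hoxc13, which drives hair keratin genes, stood at 8.09, 7.53 and 10.5 CPM in Skin WT and at 33.5, 8.97 and 15.5 CPM in Skin KO and missed the threshold (adjusted p = 0.0648). Skin WT 2 was the lowest WT skin library for Lef1 and Hoxc13 but not for Foxn1, while Skin KO 1 was highest of the skin libraries for Foxn1, Lef1 and Hoxc13.

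Of 16 other genes of the hair shaft and root sheath that are no keratins, 3 rose and 1 fell among 15 tested in skin, and with the replicate block 11 rose and 1 fell (21.5% of all genes rose in that fit). Tgm3, a transglutaminase that cross-links the shaft and sheath and is also made in upper epidermis, stood at 13.7, 3.4 and 10.8 CPM in Skin WT and at 200.2, 229 and 186 CPM in Skin KO and rose by 4.47 (SE 0.53, adjusted p = 0.000986). The KO libraries were even, unlike those of the hair keratins. Trichohyalin (Tchh), the filler protein of the inner root sheath, stood at 141, 3.88 and 102 CPM in Skin WT and at 1654, 40.7 and 514 CPM in Skin KO and did not pass (adjusted p = 0.127), with Skin KO 2 below Skin WT 1 and Skin WT 3. Among 10 proliferation genes 9 rose in KO skin and 6 in KO epidermis, against 22.2% and 26.2% of all genes. Mki67 stood at 28.7, 41.6 and 43.1 CPM in Skin WT and at 119, 171 and 135 CPM in Skin KO, where Skin KO 2 was the highest and not the lowest.

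Markers of other cells differed between the groups too. Over all genes 22.2% rose and 23.3% fell in KO skin, and 26.2% rose in KO epidermis. Summed pigment cell markers stood at 7.29 to 15.9 CPM in Skin WT and at 49.5 to 80.8 CPM in Skin KO, with 6 of 6 tested genes higher. Follicle stem cell markers stood at 4204 to 5125 CPM in Skin WT and at 656 to 764 CPM in Skin KO, with 4 of 7 lower. Most of that sum was Krt15, at 3959, 4754 and 3883 CPM in Skin WT and 613, 541 and 560 CPM in Skin KO, and Lgr5, Nfatc1 and Foxc1 differed by -0.12, -0.19 and 0.10 on the log2 scale and did not pass. Skeletal muscle markers stood at 10963 to 68461 CPM in Skin WT and at 730.1 to 3664 CPM in Skin KO, with 7 of 7 lower, and adipocyte markers fell in 6 of 6. Of 5 dermal papilla markers 3 were tested in skin, where 2 fell and 0 rose. Fibroblast markers stood at 5.06 to 9.69 CPM in Epidermis WT and at 58.7 to 111 CPM in Epidermis KO, with 5 of 5 tested genes higher. No muscle or fibroblast marker was at 0 in any library, while 1 or 2 of the 9 pigment cell markers were at 0 in each skin and WT epidermis library. The part of these cells in the results on hair genes was not tested.

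Genes outside the family that followed it most closely were found from log2(CPM + 1) over the 12 libraries, ranked by Pearson's r with the summed hair genes among 14062 genes, as a description without a p. The nearest 10 were Crnn (r = 0.983), S100a3 (0.982), Padi3 (0.981), Crym (0.972), Tchhl1 (0.965), Dsg4 (0.961), Prr9 (0.958), Tchh (0.949), Gprc5d (0.947) and Tgm6 (0.946). Of these 8 belong to the list of 16 hair shaft and root sheath genes above. Crnn stood at 6.19, 0.119 and 5.02 CPM in Skin WT and at 86.1, 3.3 and 21.2 CPM in Skin KO. The 12 points share tissue and genotype, and Skin KO 1 was the highest library for all 10. Within the family the lowest r with the sum of the others belonged to Krt32 (0.265), Krtap3-2 (0.531), Krt75 (0.665) and Krt35 (0.772).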

How the data were processed

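RNA was made into stranded poly(A) libraries, per the labels' protocols. Reads were processed with bcl2fastq 2.17, STAR 2.5.1 and RSEM against mm10, per the submitters' processing notes. Which annotation release was used, and whether counting used strand, is not given in the sources used here. The deposited tables give expected counts and TPM per gene and library, per the file headers. RSEM splits a read with several possible genes among them by probability. Gene IDs were matched without version number to GENCODE mouse release M21 (47224 of 47643), and 419 had no symbol.

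The genes and all lists were chosen with earlier results of these data known. Genes named with values were the 2 highest of each keratin class and the highest of each Krtap subfamily by mean CPM. Up to 5 called members per comparison and direction, some members of the lists and the 10 nearest genes by likeness were also named. The list members named were not picked by a single rule, and some of them did not pass. Krt28, Krt73, Krtap3-1, Krtap3-3, Krtap19-1, Krtap19-2 and Krtap19-4 were added after their values were seen where a count or a neighbour needed them. Classes by amino acid content were not used, since no protein sequences were used here, and family descriptions of Krtap genes are background.

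CPM values were taken over each library's total expected counts, between 12208522 and 16743144, which allow a floor of 3 counts at 0.179 to 0.246 CPM (counting error only). For tests, expected counts were rounded (a shift of at most 0.5) and fitted on all genes with edgeR 4.0.16 (quasi-likelihood, TMM scaling, filterByExpr) in R 4.3.3, with Benjamini-Hochberg adjustment and a threshold of 0.05. Each pairwise comparison used its 6 libraries and the difference between tissues all 12. DESeq2 1.42.0, limma 3.58.1 (voom), other scalings, no filter, a Y-linked covariate, a replicate block and leaving out each library were alternatives. The fits were tested on simulated data.

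Groups share replicate numbers. In skin the deviations of same-numbered WT and KO libraries from their group means correlated across genes at 0.338, 0.363 and 0.189. Those of different numbers correlated at -0.437 to 0.121. The main fits did not use the numbers as pairs, and the replicate block, which does, was an alternative. The labels do not state such a pairing. In a check added after the data were seen, leaving out the hair genes and 81 genes that follow them (r over 0.8) took the correlation of the replicates numbered 2 from 0.326 to 0.00225, and left 0.24 and 0.241 for those numbered 1 and 3. The different-numbered Skin WT 2 and Skin KO 3 then correlated at 0.351, above all same-numbered pairs, and Skin WT 1 and Skin KO 2 at 0.0909. The genes left out were picked from these same libraries, and the hair genes were lowest in both skin libraries numbered 2. Their removal can by itself lower the correlation of that pair, so the check does not decide on pairing. No such pairing was found in epidermis or between tissues.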

Additional observations from a re-analysis of the deposited data

Results flagged for a closer look

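The effect of the Adam17 knockout on Krt32 differed between epidermis and whole skin by a test of the difference itself. The difference was -4.06 on the log2 scale (SE 1.09, adjusted p = 0.0283, edgeR's quasi-likelihood test), with Epidermis KO at 1.49, 3.73 and 4.7 CPM below all Epidermis WT libraries and Skin KO at 57.7, 2.2 and 16.4 CPM on both sides of Skin WT. For Krtap3-2 the difference was -5.20 (SE 1.55, adjusted p = 0.0421), with all 3 Epidermis KO libraries below all 3 Epidermis WT libraries and Skin KO again on both sides of Skin WT. Both differences lost their call when Skin WT 2 and Skin KO 1 were left out together, and with the replicate block (adjusted p = 0.0514 and 0.115).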

How the results depend on the processing

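The number of genes called depended on the setting. For most settings the share of all genes called is not given, so these counts are not read as particular to the members. In skin (9 called) it was 33 without a filter on low counts, 1 with limma-voom, 3 with the Y-linked covariate (all lower), 1 without both Skin WT 2 and Skin KO 1, and 0 to 51 when 1 library was left out. In epidermis (8) it was 17 without the filter, 5 with the Y-linked covariate and 5 to 13 with 1 library left out. Between WT tissues (6) it was 34 without the filter and 3 to 49 with 1 library left out. Between KO tissues (43) it was 65 without the filter, 1 with limma-voom and 0 to 70 with 1 library left out. For the difference between tissues (2) it was 0 with limma-voom, 0 without both Skin WT 2 and Skin KO 1 and 0 to 2 with 1 library left out. The cause was not tested, except that no filter adds genes to the test. Krtap19-5 turned to -0.54 in skin with the Y-linked covariate (adjusted p = 0.802), a fit whose genotype difference rests largely on Skin KO 2. Krt32, Krtap3-2 and Krt84 in epidermis and Krt32, Krt36 and Krt75 between WT tissues were called in the same direction in all alternatives run. The summed level of Skin KO 1 was 25085 in deposited TPM. With the replicate block, which takes the numbers as pairs, 59 genes were called in skin. The same block gave 15 calls in epidermis, 5 between WT tissues, 34 between KO tissues and 19 for the difference between tissues. The labels state no pairing for any of these. Depth limits the low genes, since differences under 3 counts were not detectable. Skin WT 2, where 57 of the 79 genes had 0 reads, was the deepest library, at 16743144 expected counts.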
